A study of Mus musculus with 2 samples.

Results

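CD44 is a cell surface receptor for hyaluronan, and together with the enzymes that make hyaluronan and with the proteins of the glial scar it was examined here in the striatum of mice lacking connexin 30 (Cx30). The group comprised 10 genes: *Cd44*, its ligand osteopontin (*Spp1*), the hyaluronan synthases *Has1*, *Has2* and *Has3*, the proteoglycans *Vcan* and *Ncan*, the link protein *Hapln1*, tenascin C (*Tnc*) and fibronectin (*Fn1*). Its members were every probe on the array that carried 1 of these gene names, which gave 20 of 56605 probes. The genes were chosen by their log2 ratios of Cx30 KO over WT on these arrays, which were already known, so those values are a description without a test.

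The study asked how the loss of Cx30 alters astrocytes after MPTP, a toxin that destroys dopaminergic terminals in the striatum. MPTP (20 mg/kg) was given 4 times, 2 h apart, to male mice aged 8 weeks, and RNA of the striatum was collected on day 1. Each genotype was measured on 1 single-colour Agilent array, hybridised with the combined striatal RNA of 2 mice, so that both groups share the MPTP treatment and there is no value for a single mouse. The WT mice are labelled C57BL/6J and the Cx30 KO mice Cx30-LacZ, although the methods describe WT controls bred from the same heterozygous parents. Arrays of saline-treated mice were not analysed here, so a lower level in Cx30 KO cannot be assigned to the response to MPTP or to the level before it.

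Hyaluronan is a long, unbranched sugar chain that hyaluronan synthases extrude through the plasma membrane into the extracellular space. Lecticans such as neurocan and versican bind it, link proteins fasten them to it, and tenascins join the complexes into the matrix that surrounds neurons and synapses. After injury, reactive astrocytes raise CD44 on their surface, and fibronectin, osteopontin, tenascin C and chondroitin sulphate proteoglycans accumulate at the lesion.

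The Cx30 KO label held on the array, since the brighter probe of *Gjb6*, the gene of Cx30, read 1788 in WT against 111 in Cx30 KO. All 9 markers of striatal projection neurons were well above background on both arrays, which cannot show whether tissue beside the striatum was included. Values such as 1788 and 111 are processed signals, the brightness of a spot in arbitrary units once the scanner software has removed the background. The sign ± denotes the error that the software assigns to a spot. The software also marks spots that are well above background, and the dimmest probe marked in this way had 19.8 in WT and 17.4 in Cx30 KO. After each array was scaled to its 75th percentile, the log2 signal of WT was subtracted from that of Cx30 KO to give the log2 ratio. With 1 array per genotype no spread between replicates exists. Instead, different probes of the same gene were compared. Their log2 ratios had a median SD of 0.16 and a pooled SD of 0.41 over 7780 genes. All probes of a gene read the same pools, so these SDs hold no variation between mice, dissections or labelling reactions.

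Of the detected members, *Cd44* was lower in Cx30 KO by the largest margin. Its array design holds 3 probes of 60 bases on the minus strand of chromosome 2 (mm9, the build used in the files), all for NM_009851. The sequences of a pair of them are shown because they sample different parts of the transcript and gave different results. The first ends just past the coding sequence, with the stop codon in capitals, at chr2:102654278-102654337. The second lies 23634 bases further 5′, at chr2:102677971-102678030.
Cd44, probe at the stop codon: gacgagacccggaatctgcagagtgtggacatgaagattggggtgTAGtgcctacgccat
Cd44, probe further 5′: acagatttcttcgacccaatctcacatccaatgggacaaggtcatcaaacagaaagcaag

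The brightest *Cd44* probe, 1461 bases 3′ of the stop codon probe (chr2:102652758-102652817), read 545 ± 54.7 in WT against 95.4 ± 10.3 in Cx30 KO. Its log2 ratio was −2.44, a 5.43-fold lower level, with an error of 0.21 carried over from the spot errors. The probe at the stop codon had 198 ± 20.4 in WT and 52.9 ± 6.69 in Cx30 KO, which is 3.57-fold lower at a log2 ratio of −1.84. Both probes were well above background on both arrays and lower in Cx30 KO, but their log2 ratios differed by 0.61, an SD of 0.43 that lies above the median SD between probes of a gene and close to the pooled one. The probe further 5′ was not well above background on either array, with 4.26 in WT and 3.74 in Cx30 KO. *Cd44* has alternatively spliced exons in its middle part, and the probe further 5′ was not assigned to an exon here, so which of the transcripts it could detect is not known here. Because whole tissue was measured, fewer cells with *Cd44* and less *Cd44* RNA per cell cannot be told apart.

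**Figure D1:**
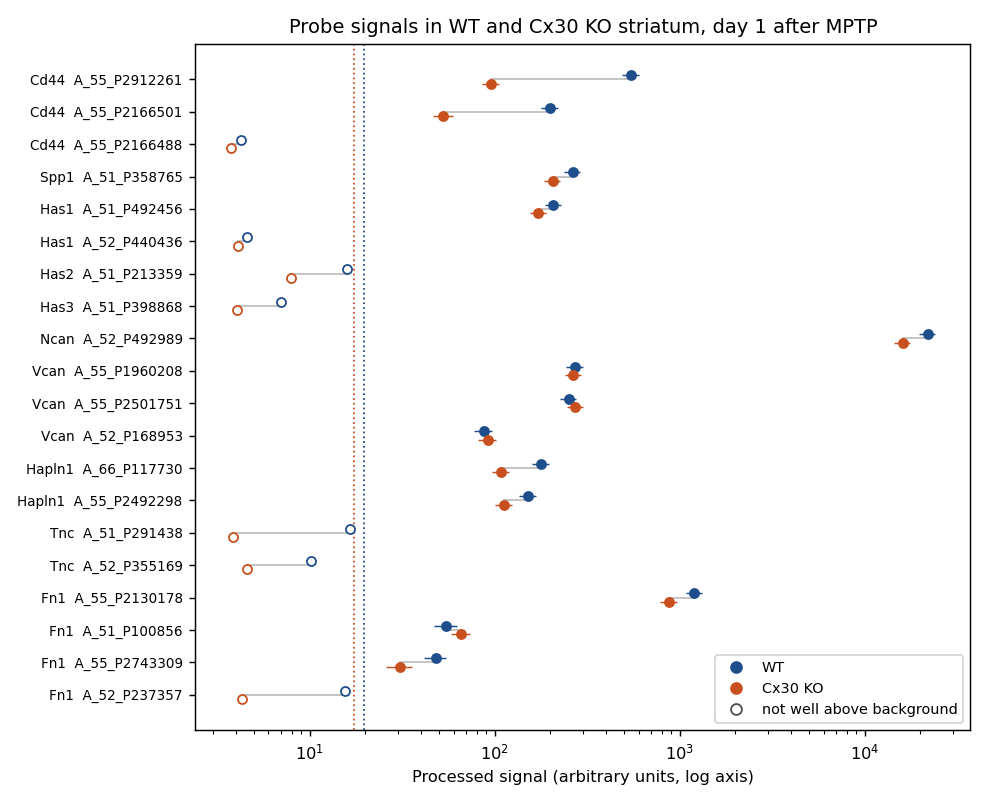
Processed signal (arbitrary units, log axis) of the 20 probes in WT (blue) and Cx30 KO (orange) striatum on day 1 after MPTP, 1 array each. Bars show the scanner software's spot error and are drawn only for probes well above background, open circles mark probes not well above background, and dotted lines mark the dimmest signal counted as well above background on each array (19.8 and 17.4). The *Cd44* probes with 545 and 198 in WT lie farthest from their Cx30 KO values among the filled circles.

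Osteopontin, a secreted phosphoprotein that binds CD44 and integrins, was represented by 1 probe for *Spp1* (chr5:104869788-104869847). It read 264 ± 26.8 in WT and 206 ± 21.0 in Cx30 KO, and the log2 ratio was −0.29 with an error of 0.21. The ratio of 0.817 was outside the study's limit of 0.66 for a lower gene.

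Of the hyaluronan synthases, *Has1* alone was detected, and by 1 of its 2 probes (chr17:17980413-17980472), with 208 ± 21.4 in WT and 172 ± 17.8 in Cx30 KO. Its log2 ratio of −0.20 was smaller in size than its error of 0.21. *Has2*, the main synthase in many adult tissues, had 16.0 ± 4.68 in WT and 7.93 ± 3.96 in Cx30 KO, which is not well above background on either array. *Has3* had 7.04 ± 4.47 and 4.06 ± 3.94, again not well above background. A difference in *Has2* or *Has3* was therefore not detectable at these signals. The raw brightness of the *Has2* spot was 99.5 in WT and 90.9 in Cx30 KO, next to a local background of 92 and 91.

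Neurocan (*Ncan*), a lectican of the nervous system that astrocytes and neurons secrete, had 1 probe (chr8:72617010-72617069). It read 21858 ± 2186 in WT and 16056 ± 1606 in Cx30 KO, and the log2 ratio was −0.37 with an error of 0.20. The Z-score, the distance of a log2 ratio from the mean of the 1000 probes nearest in signal in units of their SD, was −1.89. Neither the ratio of 0.772 nor the Z-score met the study's criteria for a lower gene, which are a ratio of at most 0.66 with a Z-score of at most −2.0.

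Versican (*Vcan*), a lectican made by oligodendrocyte precursors among other cells, gave near equal signals with each of its 3 probes. The most 5′ probe, whose 60 bases are spread over 5855 bases of the genome (chr13:89865266-89871120), had 87.4 ± 10.04 in WT and 91.7 ± 10.2 in Cx30 KO. The probe at chr13:89851810-89851869 had 272 ± 27.6 and 267 ± 27.0, and the most 3′ probe (chr13:89795080-89795139) had 251 ± 25.7 and 273 ± 27.7. Their log2 ratios were 0.14, 0.04 and 0.19, each smaller than its error, and the value of 0.04 became −0.0032 when the arrays were scaled to their medians. Neighbouring probes lie 13397 and 56671 bases apart, and the largest difference between the 3 log2 ratios was 0.15.

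*Hapln1* encodes the link protein that fastens lecticans to hyaluronan in perineuronal nets. Its brighter probe (chr13:89751096-89751155) had 178 ± 18.4 in WT and 108 ± 11.5 in Cx30 KO, and its log2 ratio was −0.65 with an error of 0.21. Its other probe, 188 bases away (chr13:89750849-89750908), had 152 ± 15.7 and 113 ± 11.8, a log2 ratio of −0.36. The brighter probe had a ratio of 0.635, past the study's limit of 0.66, but a Z-score of −1.83, so *Hapln1* did not meet the criteria.

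Tenascin C, a matrix glycoprotein that astrocytes raise after injury, was not well above background with either *Tnc* probe. The probe at chr4:63620819-63620864 had 16.5 ± 4.68 in WT and 3.84 ± 3.85 in Cx30 KO, and the probe at chr4:63674248-63675011 had 10.2 ± 5.35 and 4.62 ± 4.63. Since neither array measured *Tnc*, no fold is given.

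Fibronectin, an adhesive glycoprotein of blood plasma, vessel walls and scars, was the member whose detected probes disagreed most, by 0.92. The sequences of a pair of *Fn1* probes are shown because their log2 ratios had opposite signs. Both lie on the minus strand with their 60 bases spread over more of the genome, the more 5′ one over 1107 bases at chr1:71694694-71695800 and the more 3′ one over 2238 bases at chr1:71637422-71639659.
Fn1, more 5′ probe: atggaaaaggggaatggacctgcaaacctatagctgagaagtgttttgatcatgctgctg
Fn1, more 3′ probe: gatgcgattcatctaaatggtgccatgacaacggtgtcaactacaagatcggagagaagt

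The more 5′ probe had 48.4 ± 6.59 in WT and 30.9 ± 5.02 in Cx30 KO, and its log2 ratio was −0.58 with an error of 0.31. The more 3′ probe had 54.8 ± 7.53 in WT and 66.0 ± 7.999 in Cx30 KO, and its log2 ratio was 0.34 with an error of 0.26. The first was lower and the second higher in Cx30 KO, each by more than its error but by less than 2 times it. The brightest *Fn1* probe (chr1:71632116-71632175) had 1201 ± 120 in WT and 874 ± 87.6 in Cx30 KO, and its log2 ratio was −0.39 with an error of 0.20. The remaining probe, for the transcript ENSMUST00000189160, was not well above background on either array. No *Fn1* probe met the study's criteria.

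In all, 13 of the 20 probes and 7 of the 10 genes were well above background, each of them on both arrays. With each gene represented by its brightest probe, *Cd44* was the only member that met the criteria for lower genes, and 0 members met those for higher genes (a ratio of at least 1.5 with a Z-score of at least 2.0). Of all 22008 detected genes, 3.39% met the criteria for lower genes and 2.37% those for higher genes. The log2 ratio was below 0 for 6 of the 7 detected members, against 45.4% of all detected genes, and its median was −0.37, against 0.03 over all detected genes. By single probes, the 2 detected *Cd44* probes were the only ones of 13 that met the criteria for lower genes, which 2.93% of all detected probes did, and 0 met those for higher genes, against 2.07%. By the ratio limits alone, 2 of the 7 members (*Cd44* and *Hapln1*) were lower, against 6.21% of all detected genes, and 0 were higher, against 7.22%. These shares describe genes that were picked with their values in view and are no evidence for the group as a whole. Without *Cd44* the members lay between −0.65 and 0.04, and 221 of all detected genes had a log2 ratio as low as that of *Cd44* or lower.

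**Figure D2:**
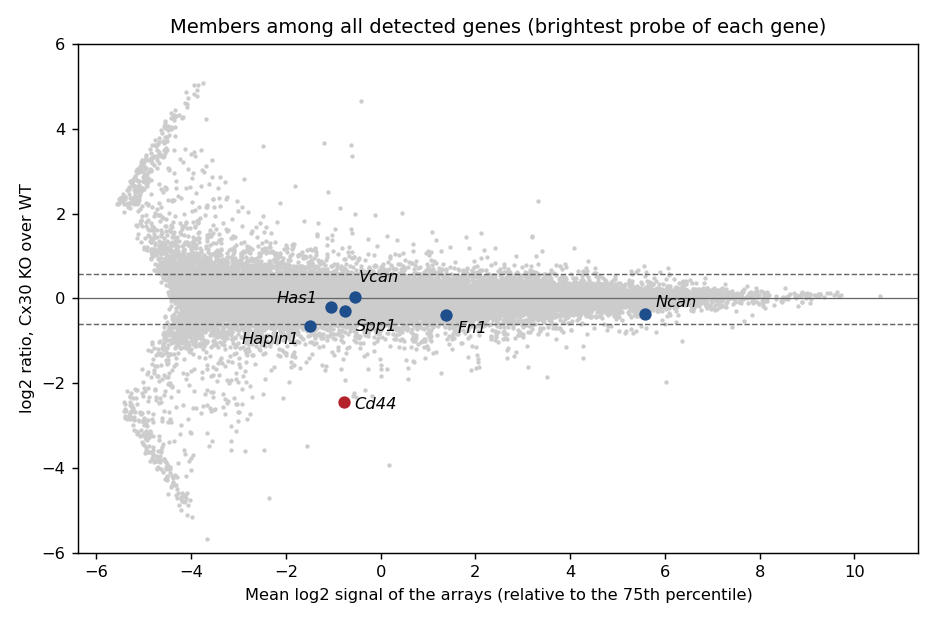
Log2 ratio of Cx30 KO over WT (vertical axis) against the mean log2 signal of both arrays relative to the 75th percentile (horizontal axis) for 22008 detected genes (grey), with the 7 detected members marked. Dashed lines show the study's ratio limits of 1.5 and 0.66, and *Cd44* (red, −2.44) lies below the range of the other members (blue, −0.65 to 0.04).

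The genes that act with the group were taken from lists of the hyaluronan, proteoglycan and receptor pathways, and the members were left out of the counts over all lists. Of 98 such genes 84 were detected, 5 met the criteria for lower genes and 2 those for higher genes, which is 5.95% and 2.38% against 3.39% and 2.37% of all detected genes. Their median log2 ratio was −0.11, and 63.1% of them had a log2 ratio below 0.

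Among the hyaluronan receptors, layilin (*Layn*), a membrane lectin that binds hyaluronan, was the other one that met the criteria for lower genes. Its single probe read 122 ± 12.97 in WT and 27.6 ± 4.78 in Cx30 KO, which is 4.21-fold lower at a log2 ratio of −2.07. The other genes of this list of receptors and uptake, not all of them receptors, did not meet the criteria. Their log2 ratios included −0.26 for *Tlr2*, −0.16 for *Stab1*, 0.21 for *Hmmr*, 0.34 for *Habp4* and 0.38 for *Stab2*. *Tlr4* had 0.16 at its brightest probe and −1.72 at a dim probe that was well above background in WT only. *Lyve1*, a receptor of lymphatic vessels and border macrophages, was well above background in Cx30 KO only, at a dim 24.3. Its bound of 1.29-fold higher leaves out the spot errors, so a difference is not established.

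The proteins that crosslink hyaluronan included 2 genes that met the criteria for lower genes. Pentraxin 3 (*Ptx3*), which organises hyaluronan in inflamed matrix, had 157 ± 16.3 in WT and 31.2 ± 5.13 in Cx30 KO, which is 4.79-fold lower at a log2 ratio of −2.26. *Itih3*, a heavy chain that is transferred onto hyaluronan, had 1540 ± 154 and 879 ± 88.0, a log2 ratio of −0.74. *Tnfaip6*, which encodes the enzyme of that transfer, had a log2 ratio of −0.47 and did not meet the criteria. *Itih4* met the criteria for higher genes at its brighter probe (log2 ratio 1.16, from 47.6 to 101), whereas its other probe had 0.30. The other link proteins had log2 ratios of −0.59 for *Hapln2*, −0.04 for *Hapln4* and 0.11 for *Hapln3*.

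The synthesis and breakdown of hyaluronan showed small differences. The 7 detected genes that supply the sugar precursors, such as *Ugdh* and *Ugp2*, had log2 ratios from −0.45 to 0.01, and 0 met the criteria. Of 9 genes for breakdown 7 were detected and 0 met the criteria, with 0.23 for *Hyal2* and 0.60 for *Cemip2*.

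The other lecticans did not meet the criteria, with log2 ratios of −0.14 for brevican (*Bcan*), whose probes ranged from −0.14 to 0.25, and 0.38 for aggrecan (*Acan*). Of the other tenascins, *Tnr* had −0.18 and *Tnxb* −0.63, and *Tnn* was not detected. Of 16 other proteoglycans 14 were detected and 0 met the criteria, and *Sdc4* came nearest, at −0.59 with a Z-score of −2.13, and met them when the arrays were scaled to their medians. The 17 detected genes of chondroitin sulphate synthesis had a median of 0.07, with 9 above 0. Among them, *Chpf2*, a chain-polymerising factor, met the criteria for higher genes at its brightest probe (log2 ratio 0.83), while its other detected probes had −0.08 and 0.36. Of the detected sulphotransferases 0 met the criteria, with −0.74 for *Chst7*, −0.72 for *Chst3*, −0.08 for *Chst11*, 0.11 for *Chst15* and 0.31 for *Chst12*.

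The integrins that bind osteopontin, tenascin C or fibronectin had log2 ratios below 0 in 8 of 9 detected genes, with a median of −0.43. *Itga9*, a receptor subunit for osteopontin and tenascin C, was the single one that met the criteria, with 589 ± 59.0 in WT and 320 ± 32.3 in Cx30 KO and log2 ratios of −0.81 and −1.01 at its 2 probes. *Itgav* had −0.54 (0.15 at another probe), *Itga5* −0.57 and *Itgb1* −0.43. *Itga8* was well above background in Cx30 KO only, at 20.5, near the dimmest signal marked there (17.4). Its bound of 1.09-fold higher leaves out the spot errors, so a difference is not established. Among 6 proteins that couple CD44 to the cytoskeleton, moesin (*Msn*) met the criteria for lower genes at its brightest probe, with 2274 ± 227 in WT and 1198 ± 120 in Cx30 KO and a log2 ratio of −0.85. The other *Msn* probes were dim and had 0.03 and, where the probe was well above background in Cx30 KO only, 2.21. *Ezr* and *Rdx*, the relatives of *Msn*, had −0.11 and −0.01. The proteases that shed CD44 had −0.10 for *Adam10*, −0.36 for *Adam17* and −0.20 for *Mmp14*. The phosphoproteins related to osteopontin were not detected, apart from *Mepe* at −0.06.

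**Figure D3:**
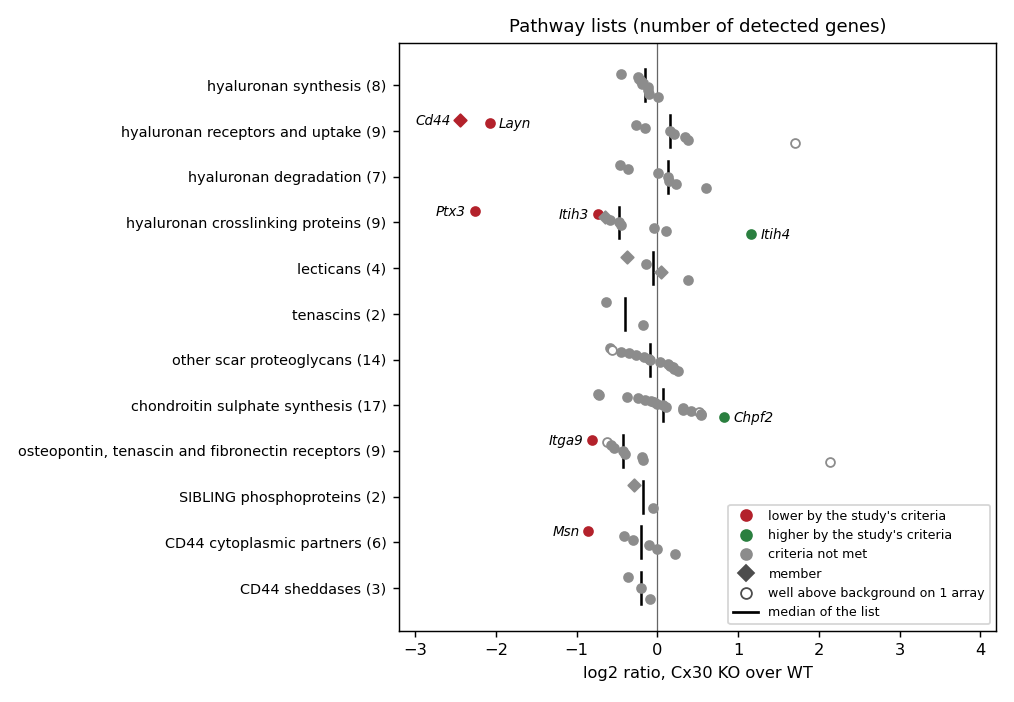
Log2 ratio of Cx30 KO over WT for each detected gene of 12 pathway lists, with the number of detected genes in brackets, members as diamonds and the median of each list as a black bar. Genes that met the study's criteria are named, and *Cd44*, *Ptx3* and *Layn* lie farthest to the left, at −2.44, −2.26 and −2.07.

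Markers of the cells that can make these molecules also differed between the arrays, and their part in the values above was not tested. All summed signals of markers are given before the arrays were scaled, whereas the log2 ratios are given after scaling. The 10 general astrocyte markers had a median log2 ratio of −0.03, with 5 below 0 and processed signals that summed to 184746 in WT against 167224 in Cx30 KO. *Slc1a3* (0.01) and *Aldh1l1* (−0.32) were among them, and *Aqp4* alone met the criteria, at −0.95, although its 4 probes ranged from −4.24 to 0.02. All 8 markers of oligodendrocyte precursors were below 0, with a median of −0.43 and a summed signal of 18020 and 13451, and *Olig1* met the criteria (−1.04), while *Pdgfra* had −0.10. All 8 oligodendrocyte markers were below 0 at their brightest probes, with a median of −0.70, and 5 met the criteria. Among these 5, *Mog* (−0.91) had 3 probes between −1.05 and −0.69. *Mag* (−0.74) and *Mbp* (−0.73) also had detected probes above 0, at up to 0.24 and 0.12. Of 8 microglial markers, 7 were below 0 at their brightest probes, with a median of −0.52 and a summed signal of 88312 and 81880. *Siglech*, the marker above 0 at its brightest probe (0.13), had 3 detected probes that ranged from −0.48 to 0.42. It made up most of that sum, and the other 7 markers summed to 28462 in WT and 19479 in Cx30 KO. The criteria were met by 4 of them, including *P2ry12* (−1.69) and *Tmem119* (−0.90). After scaling, the ratio of summed signals, Cx30 KO over WT, was 0.951 for astrocyte, 0.784 for oligodendrocyte precursor, 0.666 for oligodendrocyte and 0.974 for microglial markers.

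Of 8 markers of monocytes and border macrophages, which can carry *Cd44*, *Spp1* and *Fn1*, 6 were detected and 0 met the criteria, with a median of −0.57. *Ccr2* and *Plac8* were not detected. The 6 detected fibroblast markers had a median of 0.08, with *Col1a2* at 0.17 and *Dcn* at 0.26, and 0 met the criteria. The median was −0.17 for 8 endothelial markers. *Flt1* met the criteria at its brightest probe, but its 3 probes ranged from −0.93 to 0.52. The medians were −0.16 for 8 mural cell markers (0 met the criteria) and −0.30 for 4 detected choroid plexus markers (*Ttr* met them). In the list for interneurons that perineuronal nets with *Hapln1* surround, *Pvalb* was lower and met the criteria (−1.27). *Kcnc1* had 0.22 at its brightest probe, but its 3 probes ranged from −0.58 to 0.22. The median of 6 genes was −0.34, and *Tac1* among them is also on the list of striatal projection neurons. Cortical excitatory neurons differed most, with all 6 markers above 0, 5 of them meeting the criteria for higher genes, and signals that summed to 175 in WT against 1391 in Cx30 KO. The striatal projection neurons had a median of −0.16. Their signals before scaling summed to 491715 in WT and 485627 in Cx30 KO. After scaling, the sum was higher in Cx30 KO, at a ratio of 1.04 over WT. With 1 pool for each genotype, a difference in the dissected tissue, the genotype and the single mice cannot be told apart.

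The scaling of the arrays changed the sign of 1 of the 13 detected probes, the *Vcan* probe named above. Normexp background correction with quantile normalisation moved *Cd44* most. Under that setting the *Cd44* probes had −1.89 and −1.11, and the opposed *Fn1* probes had −0.24 and 0.10. *Cd44* met the criteria in each of the 12 alternative settings for the members, some of which could not change its values.

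**Figure D4:**
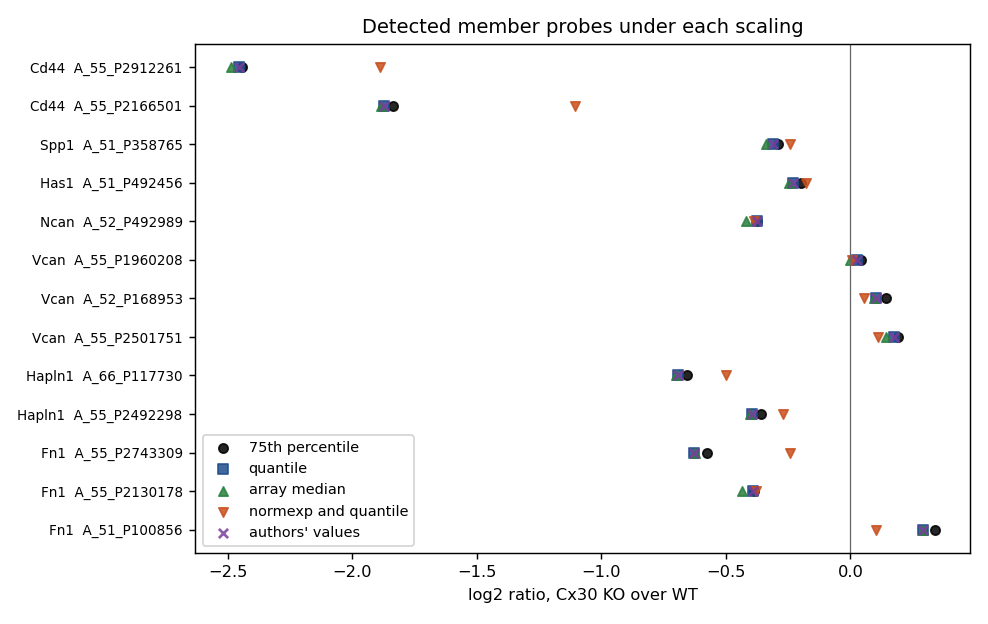
Log2 ratio of Cx30 KO over WT for the 13 detected member probes under 5 ways of scaling the arrays, each shown by its own symbol. Both *Cd44* probes lie left of −1.1 under each of them, and 1 *Vcan* probe crosses 0.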

How the data were processed

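Total RNA of the striatum was labelled with Cy3 and hybridised to 60-mer Agilent arrays. The authors extracted the spots with Agilent Feature Extraction (version 10.7.1.1 in the file headers, 9.5.1.1 in the submitters' processing notes). The deposited processed signals are linear intensity values, background-subtracted and detrended within each array and not normalised between arrays. The flags for background, saturation and outliers are other deposited values, and 0 member probes were saturated. A deposited table of normalised intensity values, of unstated method, lay within 1% of quantile-normalised processed signals for 99.991% of its values. Its median was 41.2 on both arrays.

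From these files, control and outlier spots were left out, replicate spots of each probe were averaged on the log2 scale, and each array was scaled to its 75th percentile (401.2 in WT, 381.8 in Cx30 KO). A probe was detected when at least 50% of its spots were well above background, as 56.6% were in WT and 58.2% in Cx30 KO. A gene was represented by its brightest detected probe. Older symbols of 1897 probes were updated with a RefSeq table, which added no probe to the members. A gene well above background on 1 array was given the bound set by the other array's dimmest such signal or its own, whichever was higher. Spot errors did not enter this bound. The study's criteria were applied with a Z-score over 1000 probes, since the paper names no set of probes for it. The error of a log2 ratio combines the spot errors of both arrays. Calculations used Python 3.11.15, numpy 2.4.6, pandas 2.3.3 and limma 3.58.1 (normexp, offset 50), and were tested on simulated data.

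Members, pathway lists, marker lists and the alternatives were chosen with earlier results of these data known. All members were named with each probe and *Gjb6* as a check of the label, as were the pathway genes that met the criteria, the lecticans, tenascins, link proteins and hyaluronan receptors, and at most 3 markers of each cell type. Further pathway genes were chosen after their values were seen. With 1 array per genotype no test could be made, and precision is limited by how many arrays there are. The alternatives were scaling to the median, quantile normalisation with and without normexp, the authors' values, outlier spots kept, no filter on dim probes, a filter for signal on each array, averages over all probes of a gene, other Z-score windows and other ratio limits.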

Additional observations from a re-analysis of the deposited data

How the results depend on the processing

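The count of 1 member (*Cd44*) that met the criteria for lower genes held in 11 of 12 alternatives. With the ratio limits alone it was 2, *Cd44* and *Hapln1*, against 6.21% of all genes. The count of 0 higher members held in all 12, and the members' median stayed between −0.52 (no filter on dim probes) and −0.27 (normexp). The 12 alternatives are not independent checks. No member probe had an outlier spot, so keeping such spots could not change the members' values. Each detected member probe was well above background on both arrays, so the filter for signal on each array could not either. The authors' values nearly repeat quantile normalisation. Of the pathway genes, 5 lower and 2 higher became 9 and 5 with the ratio limits alone, and 2 and 1 with ratio limits of 2 and 0.5. Scaling to the median added *Sdc4* and gave 6 lower ones. With a Z-score over all probes 2 were lower, *Layn* and *Ptx3*, and the 2 higher ones were *Itga8* and *Lyve1*, both measured in Cx30 KO only. When all probes of a gene were averaged, 0 were higher, and *Msn* was no longer among the lower ones. Over all genes, 746 lower and 522 higher became 1367 and 1589 with the ratio limits alone, 428 and 340 with limits of 2 and 0.5, 455 and 502 with a Z-score over all probes, and 502 and 328 when both arrays had to be well above background. Of 65 values of single probes under other settings 61 moved by less than the median SD between probes of a gene. The other 4 were *Cd44* and *Fn1* probes under normexp, and why those 4 moved was not tested. The 65 include the values with outlier spots kept, which could not move. They also include the authors' values, which nearly repeat quantile normalisation, so the 61 overstate how stable the values were. Signal over background limits *Has2*, *Has3* and *Tnc*, which no array measured. No paired analysis was possible because each genotype has 1 array, and leaving out an array was not possible for the same reason.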
